A study of Mus musculus with 126 samples.

Results

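The genes described here are 10 genes of contractile filaments, caveolae and mesenchymal matrix: Tagln, Acta2, Cnn1, Myl9, Tpm1, Tpm2, Actg2, Cav1, Cav2 and Tnc. They were picked by symbol from the 23420 genes of an RNA-seq count table of mouse embryonic stem cells, on measured values: several are far lower in DNA methyltransferase mutant cells and differ between replicate libraries. Their differences between genotypes and between replicates are therefore given as descriptions with no test. The effect of trichostatin A averaged over both genotypes gives no weight to either genotype difference, and it is the one effect tested for them. The spread between replicates, on which they were also chosen, is the error of that test. Which of them pass is therefore partly set by the choice, and a gene that did not pass is not read as unchanged.

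The cells were J1 wild type stem cells and DNMT.TKO stem cells, a triple knockout line that lacks the methyltransferases Dnmt1, Dnmt3a and Dnmt3b. Both were grown on gelatin in medium with serum and leukaemia inhibitory factor, and both received for 36 h either 5 ng/µl trichostatin A (TSA), an inhibitor of histone deacetylases, or 0.0033% DMSO, its solvent. The 4 groups were wild type with DMSO, wild type with TSA, TKO with DMSO and TKO with TSA, with 2 libraries each, which the submitters describe as biological replicates. The other 118 of the 126 samples of the series are chromatin libraries and were not used here. The labels give no clone for either genotype, so a difference between genotypes cannot be told apart from one between clones.

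Contractile filaments are built from actin and myosin. Acta2 and Actg2 encode smooth muscle actins, Myl9 a regulatory light chain of myosin, Tpm1 and Tpm2 tropomyosins that lie along the actin filament, and Tagln (transgelin) and Cnn1 (calponin) proteins that bind actin. Many of these genes are textbook targets of serum response factor (Srf), which binds a motif called the CArG box together with its coactivators myocardin and the myocardin-related factors. Caveolae are small pits of the plasma membrane whose coat is formed by caveolins, among them Cav1 and Cav2, and by cavins. Tnc encodes tenascin C, a matrix glycoprotein of developing and injured mesenchyme.

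RefSeq promoter windows were at hand for 8 of the 10 genes (GRCm38.p6, 10 windows of 250 bases that end just before the annotated start of transcription). Those of Acta2, Myl9, Tpm1 and Cav1 are printed because the first 3 hold matches to the CArG box and the last, that of the gene with the widest difference between genotypes in DMSO, holds none. Each is written 5′ to 3′ on the strand of the gene. Capitals mark a CArG box with at most 1 letter changed, or the motif CATTCC or its reverse complement GGAATG, the core of sites for TEAD factors. Both strands were searched, and no 2 matches overlap.
Acta2, minus strand, chr19:34255374-34255623: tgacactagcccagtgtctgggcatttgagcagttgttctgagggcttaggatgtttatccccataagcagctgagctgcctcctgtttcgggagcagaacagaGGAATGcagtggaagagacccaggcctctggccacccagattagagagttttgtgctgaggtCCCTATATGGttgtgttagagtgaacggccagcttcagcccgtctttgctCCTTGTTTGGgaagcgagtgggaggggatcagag
Myl9, plus strand, chr2:156775214-156775463: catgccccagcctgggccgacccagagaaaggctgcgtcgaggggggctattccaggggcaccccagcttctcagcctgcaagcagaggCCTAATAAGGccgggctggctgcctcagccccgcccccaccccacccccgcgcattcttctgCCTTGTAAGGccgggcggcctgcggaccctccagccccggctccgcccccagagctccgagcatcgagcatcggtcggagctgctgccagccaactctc
Tpm1, minus strand, chr9:67049214-67049463: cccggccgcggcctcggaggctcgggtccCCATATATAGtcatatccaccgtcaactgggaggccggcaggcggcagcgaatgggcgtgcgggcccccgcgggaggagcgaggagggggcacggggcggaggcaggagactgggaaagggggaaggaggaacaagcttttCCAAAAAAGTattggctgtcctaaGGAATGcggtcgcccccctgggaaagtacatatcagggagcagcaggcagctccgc
Cav1, plus strand, chr6:17306085-17306334: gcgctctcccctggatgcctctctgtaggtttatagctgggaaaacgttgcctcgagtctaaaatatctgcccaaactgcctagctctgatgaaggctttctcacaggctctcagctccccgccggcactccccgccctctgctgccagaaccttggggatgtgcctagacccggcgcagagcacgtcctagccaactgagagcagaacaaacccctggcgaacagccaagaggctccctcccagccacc

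An unchanged CArG box was found in 1 of the 8 genes, Myl9, where CCTAATAAGG begins 161 bases before the start. Of 32851 promoter windows in the table, 1.47% hold an unchanged box. With 1 letter allowed to change, 4 of the 8 genes held a match (Acta2, Myl9, Tpm1 and the second start of Tnc), and 18.6% of all windows did. The matches in Acta2 begin 84 and 34 bases before the start, those in Tpm1 221 and 80 bases before it. The TEAD motif was in 2 of the 8 genes, Acta2 (146 bases before the start) and Tpm1 (56 bases), and in 12.6% of all windows. No match to either motif lay in the windows of Cnn1, Tpm2, Cav1 or Cav2, which says only that these letters are not in those 250 bases. CpG dinucleotides, the substrate of the missing enzymes, numbered 16 in the Myl9 window, 19 in Tpm1, 17 in Tpm2, 10 in Cav2, 10 and 12 in the windows of Cav1, 8 and 10 in those of Tnc, 4 in Acta2 and 3 in Cnn1, against a median of 6 over all windows.

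Depth was similar throughout, from 13280631 to 15542527 counted fragments a library, so that 3 counts, the limit that a count of 0 allows, corresponded to 0.183 to 0.243 CPM. Levels here are CPM, counts scaled to a common library total, normalised by TMM, which aligns the libraries on the bulk of their genes. The methyltransferase transcripts matched the genotype labels: Dnmt1 was at 360 to 464 CPM in wild type and 123 to 135 in TKO libraries, Dnmt3a at 152 to 237 and 25.9 to 39.1, and Dnmt3b at 343 to 596 and 43.7 to 76.1. All 12 embryonic stem cell markers examined, Pou5f1, Nanog and Sox2 among them, had counts in every library. The 2 libraries of each group differed beyond counting noise, with a chi-square per degree of freedom over genes between 5.28 (TKO with DMSO) and 12.2 (wild type with DMSO), so none was a duplicate. In bulk RNA, fewer cells of a type and less RNA per cell cannot be told apart.

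All 10 genes had a lower mean in TKO than in wild type cells in both treatments. In DMSO, 8 of the 10 were at least 4-fold lower in TKO (2.15% of the 15822 genes tested), all but Myl9 and Actg2, and with TSA 3 were (0.815% of genes): Tagln, Acta2 and Cav1. The median ratio of wild type to TKO was 6.94 in DMSO and 3.12 with TSA. In 7 of the 10, all 4 TKO libraries lay below all 4 wild type libraries (6.01% of genes), and Myl9, Actg2 and Tnc were the others. The genes were chosen for such differences, so nothing is read from these shares. Without the first wild type DMSO library, 5 genes in place of 8 were at least 4-fold lower in DMSO, and without the second wild type TSA library 5 in place of 3 with TSA.

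**Figure D1:**
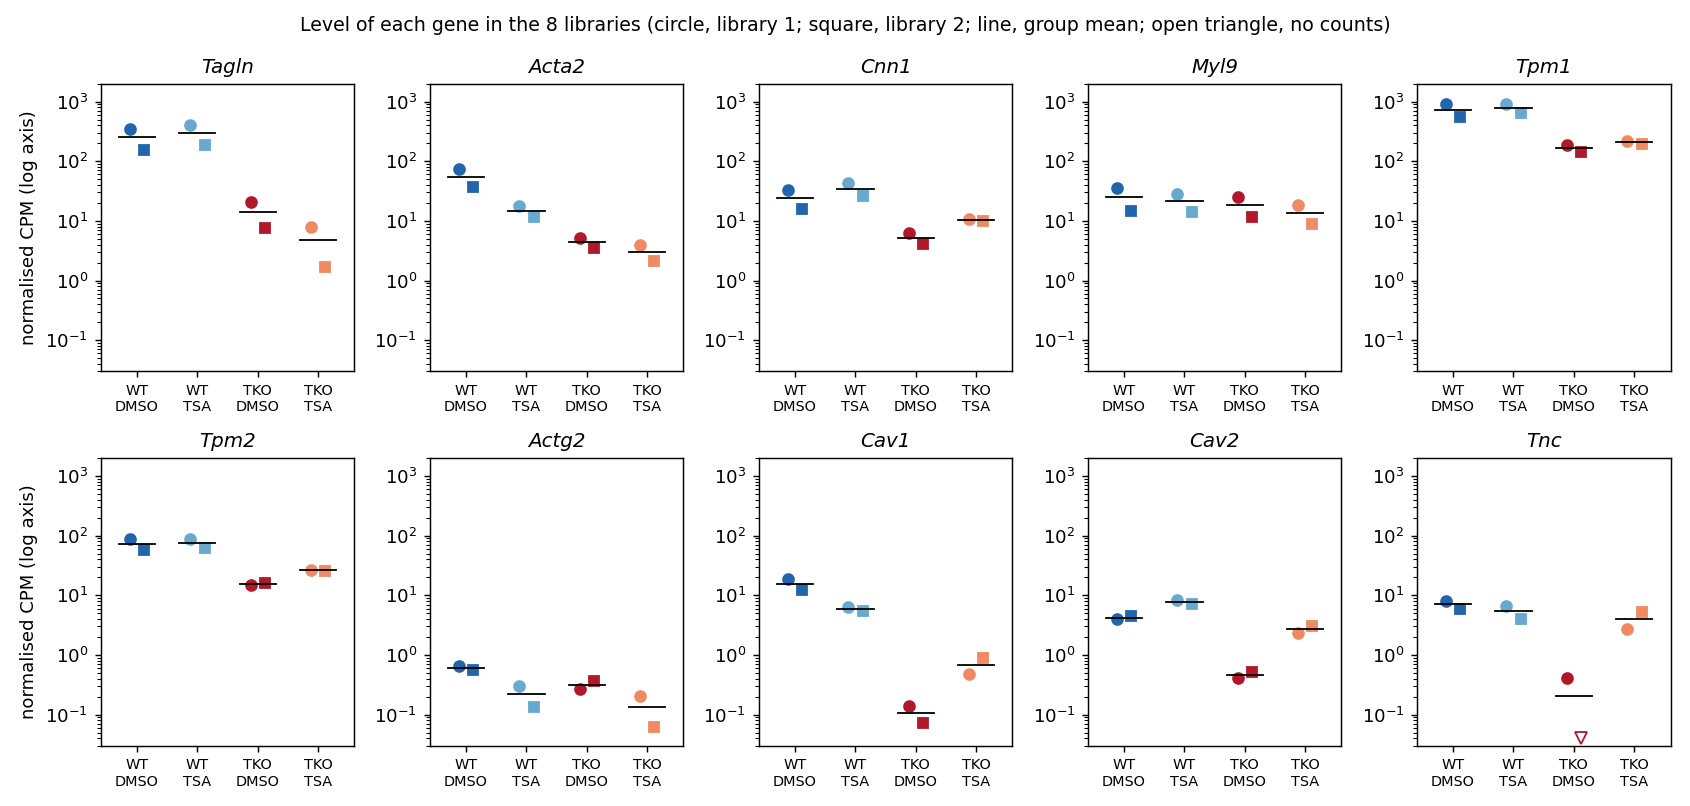
Normalised CPM on a log axis for each of the 10 genes in the 8 libraries, with circles for the first and squares for the second library of a group, lines for the group mean, and an open triangle for the library without counts. Tagln, Acta2, Cnn1, Tpm1, Tpm2, Cav1 and Cav2 are lower in every TKO library than in any wild type library, whereas Myl9 overlaps throughout and Tnc overlaps once TSA is added.

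Among the proteins that bind actin, Tagln (chr9:45929628-45936058, mm10) had a wide genotype difference in both treatments. Its level was 351 and 153 CPM in the 2 wild type DMSO libraries, 405 and 190 in wild type with TSA, 20.5 and 7.64 in TKO with DMSO, and 7.92 and 1.70 in TKO with TSA. The TKO libraries were all low, and the 2 libraries of each group were far apart. Group means were 252 ± 140, 297 ± 152, 14.1 ± 9.11 and 4.81 ± 4.40 CPM (SD, n = 2 each), a ratio of wild type to TKO of 17.9 in DMSO and 61.8 with TSA. TSA moved the fitted level by 0.24 ± 0.49 (log2, SE) in wild type and -1.58 ± 0.71 in TKO, where the libraries of the 2 treatments overlapped in wild type and also in TKO. Of the exon bases of Tagln, 5.99% lie inside the neighbouring gene Pcsk7, and whether counting used strand is not given in the sources used here.

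Calponin, Cnn1 (chr9:22099253-22109221), was 33.5 and 15.7 CPM in wild type with DMSO, 43.7 and 25.8 in wild type with TSA, 6.36 and 4.15 in TKO with DMSO, and 10.8 and 9.86 in TKO with TSA. Genotype separated these libraries and TSA separated only those of TKO. The ratio of wild type to TKO was 4.68 in DMSO and 3.37 with TSA. Without the first wild type library, which was the higher of each wild type pair, the log2 difference of means (TKO over wild type) was -1.60 in DMSO and -1.33 with TSA.

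Of the smooth muscle actins, Acta2 was well detected and Actg2 barely. Acta2 (chr19:34240336-34255373) was 72.8 and 37.1 CPM in wild type with DMSO, 17.5 and 11.5 in wild type with TSA, 5.13 and 3.57 in TKO with DMSO, and 3.99 and 2.13 in TKO with TSA. Both wild type TSA libraries lay below both wild type DMSO libraries, a 3.79-fold lower mean, while the TKO libraries of the 2 treatments overlapped. The ratio of wild type to TKO was 12.6 in DMSO and 4.74 with TSA. Actg2 (chr6:83512909-83536251) was near the limit of detection, with 9 and 7 counts in wild type with DMSO, 5 and 2 in wild type with TSA, 4 and 5 in TKO with DMSO, and 3 and 1 in TKO with TSA. Its summed counts gave a ratio of wild type to TKO of 1.91 in DMSO (95% interval 0.796 to 4.91) and 1.73 with TSA (0.439 to 8.05), intervals that cover counting error only and leave a genotype difference not detectable at this depth. Actins are near-identical in sequence, and how reads that fit several of them were counted is not given in the sources used here, so the split of reads between Acta2, Actg2 and the sarcomeric actin Acta1 is uncertain.

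Tropomyosins were the 2 genes of the group whose profiles were most alike. Tpm1 (chr9:67022593-67049213) was 916 and 548 CPM in wild type with DMSO, 913 and 652 in wild type with TSA, 191 and 142 in TKO with DMSO, and 221 and 197 in TKO with TSA. Tpm2 (chr4:43514712-43523388) was 87.4 and 57.8, 89.1 and 60.9, 15.1 and 16.0, and 26.9 and 25.9 CPM in the same order. In both genes the TKO libraries were low and the TKO libraries with TSA lay above those with DMSO, whereas the wild type libraries of the 2 treatments overlapped. The ratio of wild type to TKO was 4.40 in DMSO and 3.75 with TSA for Tpm1, and 4.66 and 2.84 for Tpm2. After centring each gene on its mean, Tpm1 and Tpm2 differed by a root mean square of 0.219 on the log2(CPM + 1) scale over the 8 libraries, Cnn1 and Tpm2 by 0.262, and Cnn1 and Tpm1 by 0.278, while Cav1 and Cav2 differed by 1.05.

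Myl9 (chr2:156775464-156781657), the myosin light chain, differed more between the 2 libraries of a group than between group means. It was 35.9 and 14.8 CPM in wild type with DMSO, 28.6 and 14.0 in wild type with TSA, 24.9 and 11.4 in TKO with DMSO, and 18.5 and 8.73 in TKO with TSA. The first library was 2.42, 2.05, 2.18 and 2.12 times the second in these groups. All neighbouring groups overlapped, and the ratio of wild type to TKO was 1.40 in DMSO and 1.56 with TSA. Per kilobase of exon, Tpm1 (223 CPM per kb) and Tagln (159) were the highest of these genes in wild type with DMSO. In TKO with DMSO the highest were Tpm1 (50.8), Myl9 (16.8) and Tagln (8.88), in that order.

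Of the caveolar genes, Cav1 (chr6:17306335-17341328) had the lowest counts in TKO. It was 19.1 and 12.2 CPM in wild type with DMSO, 6.29 and 5.37 in wild type with TSA, 0.137 and 0.0728 in TKO with DMSO, and 0.474 and 0.879 in TKO with TSA, the last 2 groups resting on 2 and 1, and 7 and 14 counts. The 4 groups stood apart in the order wild type with DMSO, wild type with TSA, TKO with TSA and TKO with DMSO. Summed counts gave a ratio of wild type to TKO of 150 in DMSO (95% interval 51.0 to 730) and 8.56 with TSA (5.44 to 14.2), counting error only. TSA moved Cav1 in opposite directions in the 2 genotypes: both TSA libraries were below both DMSO libraries in wild type, with a 2.68-fold lower mean, and above them in TKO, where DMSO was under the 3-count limit. On the fitted scale these were -1.42 ± 0.26 and 2.60 ± 0.75 (log2, SE), a description with no test. The SE is derived from the test statistic and can understate the error on so few counts.

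Cav2 (chr6:17281341-17289011), whose end lies 17324 bases from the start of Cav1, was 4.00 and 4.46 CPM in wild type with DMSO, 8.25 and 7.20 in wild type with TSA, 0.411 and 0.509 in TKO with DMSO, and 2.37 and 3.01 in TKO with TSA. Its 4 groups also stood apart, but in the order wild type with TSA, wild type with DMSO, TKO with TSA and TKO with DMSO. The 2 TSA libraries lay above the 2 DMSO libraries in both genotypes, with a 1.83-fold higher mean in wild type and a 5.85-fold higher mean in TKO. The ratio of wild type to TKO was 9.19 in DMSO and 2.87 with TSA. So the neighbouring caveolin genes were both low in TKO, and in wild type cells Cav1 was lower and Cav2 higher with TSA.

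Tnc (chr4:63959785-64047015), tenascin C, was near 0 in a single group. Its level was 8.14 and 6.00 CPM in wild type with DMSO, 6.72 and 4.08 in wild type with TSA, 0.411 and 0 in TKO with DMSO, and 2.71 and 5.27 in TKO with TSA. The TKO DMSO libraries held 6 and 0 counts, and the count of 0 allows up to 0.218 CPM. With TSA the second TKO library exceeded the second wild type library. Summed counts gave a ratio of wild type to TKO of 33.7 in DMSO (95% interval 15.2 to 93.1, counting error only), against a ratio of means of 1.35 with TSA. The mean of TKO libraries was 19.4-fold higher with TSA than with DMSO, whereas the wild type libraries of the 2 treatments overlapped.

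Averaged over both genotypes, TSA raised 4 of the 9 genes that could be tested and lowered 1. Cav2 rose by 1.70 ± 0.21 on the log2 scale (SE, adjusted p = 3.15e-05), Tnc by 1.90 ± 0.42 (adjusted p = 0.00185), Cnn1 by 0.73 ± 0.25 (adjusted p = 0.0215) and Tpm2 by 0.40 ± 0.15 (adjusted p = 0.0286), by edgeR's quasi-likelihood test with Benjamini-Hochberg adjustment over 15822 genes. Acta2 fell by 1.22 ± 0.27 (adjusted p = 0.00198). The average for Tnc joins a fitted change of -0.39 ± 0.40 in wild type and 4.19 ± 0.69 in TKO, the latter from DMSO libraries with 6 and 0 counts. Such a low TKO level was part of how the genes were chosen. Cav1 (0.59 ± 0.41, adjusted p = 0.226), Tpm1 (0.21 ± 0.16, adjusted p = 0.254), Tagln (-0.67 ± 0.43, adjusted p = 0.184) and Myl9 (-0.34 ± 0.34, adjusted p = 0.399) did not pass the test, and Actg2 was removed by the filter on low counts. These outcomes depended on the model. With a term for the replicate number, the same test called Tagln (-0.67, adjusted p = 0.000329) and Myl9 (-0.32, adjusted p = 0.00828) lower and Tpm1 (0.23, adjusted p = 0.0208) higher.

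These counts are to be read against a broad response, since 35.9% of all genes tested were called higher with TSA and 33% lower. The median log2 change was 0.40 over the 9 genes and 0.03 over all genes, a median that moved to 0.20 when libraries were scaled by total counts, so directions are relative to the bulk of genes. Leaving out the first wild type TSA library or the second TKO DMSO library left 2 genes called higher in place of 4. Tagln passed the test as lower without the first wild type TSA library (-1.0, adjusted p = 0.0466) and without the first TKO TSA library (-1.41, adjusted p = 0.0324), which had the highest Tagln level of their groups, and Tpm1 as higher without the first wild type DMSO library (0.42, adjusted p = 0.0163). Cnn1 did not pass without the first wild type TSA library (0.51, adjusted p = 0.0772) or the second TKO DMSO library (0.59, adjusted p = 0.0920). Tpm2 did not pass in 5 of the 8 fits that left out 1 library, with adjusted p-values from 0.0605 to 0.127 there: those without the second wild type DMSO, the first wild type TSA, either TKO DMSO or the first TKO TSA library.

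**Figure D2:**
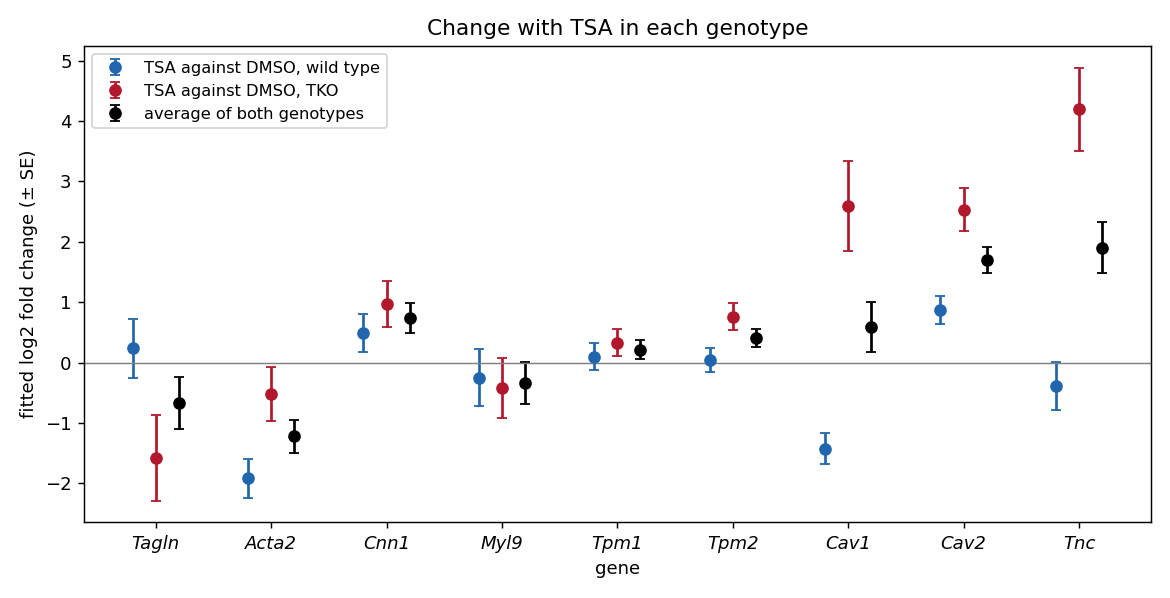
Fitted log2 fold change of TSA over DMSO (points, with bars of 1 SE) for the 9 genes tested, in wild type cells, in TKO cells and averaged over both. Each SE is derived from the test statistic. Cav2 lies above 0 in both genotypes, Acta2 below 0 in both, and Cav1 at -1.42 in wild type and 2.60 in TKO.

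By sample, the 2 TSA libraries lay above the 2 DMSO libraries in TKO cells for 6 of the 10 genes (42.5% of all genes tested), namely Cnn1, Tpm1, Tpm2, Cav1, Cav2 and Tnc. They lay below for 1 gene in TKO, Actg2 (39.5% of genes), on 4 to 5 counts against 1 to 3. In wild type cells the TSA libraries were above for 1 gene, Cav2 (39.6% of genes), and below for 3, Acta2, Cav1 and Actg2 (37.4% of genes). The difference between the genotypes in these counts was not tested.

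The 2 libraries of a group were uneven for many of these genes. The first library was at least 1.5-fold above the second for 7 of the 10 genes in wild type with DMSO (8.37% of all genes tested) and 6 in wild type with TSA (3.29%). In TKO it was so for 5 genes with DMSO (5.68%) and 4 with TSA (3.61%). Some rest on few counts. In TKO with DMSO these were Cav1 (2 against 1) and Tnc (6 against 0). Actg2, which is not among the genes tested, had 5 against 2 in wild type with TSA and 3 against 1 in TKO with TSA. For Tagln and Myl9 the first library was at least 1.5-fold above in all 4 groups, with Tagln at 2.29, 2.14, 2.69 and 4.67 times. In TKO with TSA the second library was at least 1.5-fold above the first for 2 genes, Cav1 and Tnc (7.56% of genes). Cav2 differed little, with ratios of the first to the second library of 0.897, 1.14, 0.806 and 0.786. Of 30 other contractile genes, 8, 4, 2 and 3 were at least 1.5-fold higher in the first library of the 4 groups, and 0, 2, 3 and 4 in the second. The replicate spread was part of how the genes were chosen, and no batch is given in the labels.

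**Figure D3:**
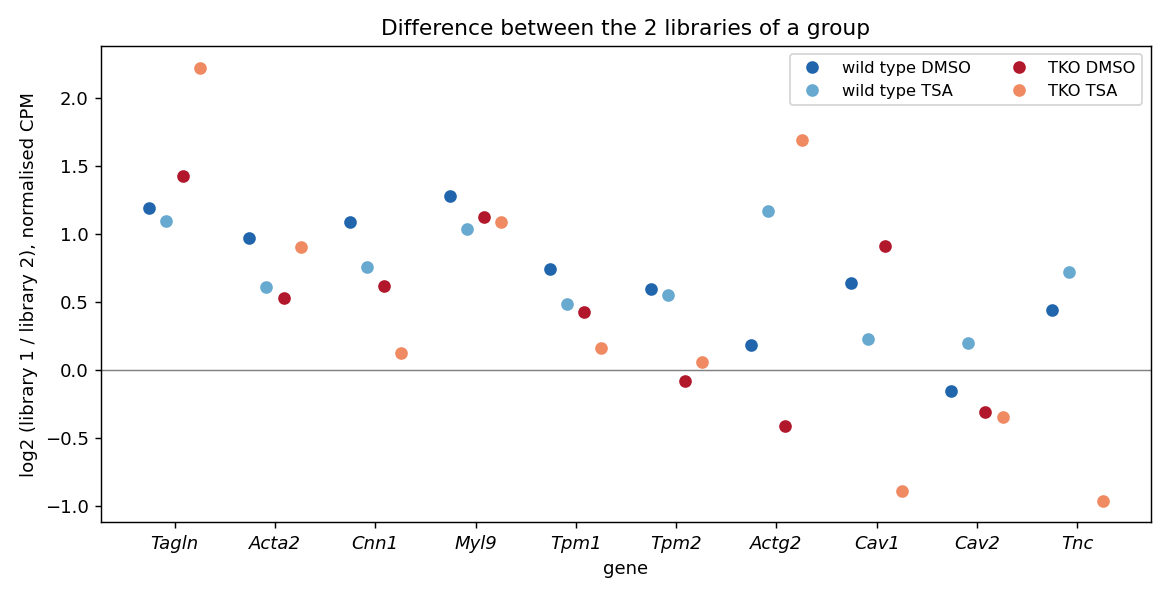
Log2 ratio of the first to the second library of each group, from normalised CPM, for the 10 genes. Tagln, Acta2, Cnn1, Myl9 and Tpm1 lie above 0 in all 4 groups, Cav2 lies near 0, and Tnc has no value in TKO with DMSO, where its second library held no counts.

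Markers of other cells that a stem cell culture can hold moved with some of these values. Summed over 8 defining fibroblast markers (Col1a1, Col1a2, Lum, Dcn, Postn, Thy1, Prrx1 and Twist2), the level was 30.0 and 39.6 CPM in wild type with DMSO, 64.1 and 81.4 in wild type with TSA, 7.18 and 6.40 in TKO with DMSO, and 28.6 and 44.8 in TKO with TSA. This sum was thus low in TKO and higher with TSA, and in each wild type pair it was higher in the second library. Not every marker in it moved so. With TSA, Dcn went from 10 and 6 counts to 1 and 2 in wild type, and from 19 and 4 to 0 and 0 in TKO. Prrx1 had a lower mean with TSA in both genotypes, and the mean of Dcn in DMSO was higher in TKO than in wild type. Of the 20 fibroblast markers listed, 16 to 19 had counts in a library, and their whole sum was 501 and 379 CPM in wild type with DMSO, 424 and 396 in wild type with TSA, 369 and 299 in TKO with DMSO, and 363 and 431 in TKO with TSA. The whole sum was thus higher in the first library of both wild type pairs, as Tagln was, and the defining markers were higher in the second. Vim alone gave 358 and 265 CPM of the whole sum in wild type with DMSO and 204 and 176 with TSA. In TKO it gave 292 and 226 CPM in DMSO and 198 and 233 with TSA. The order of the whole sum between libraries therefore leans on Vim. Defining markers at 0 were Lum in 1 library of each DMSO group, Twist2 in both TKO DMSO libraries, Dcn in both TKO TSA libraries and Prrx1 in 1 of them, and the marker Fap was at 0 in all 8 libraries. The filter on low counts removed Dcn, Prrx1, Mgp and Fap from the test. Of the 16 fibroblast markers tested, 13 rose and 1 fell with TSA on average (35.9% and 33% of all genes, median log2 1.28). In TKO, 7 fell and 2 rose in DMSO (10.7% and 9.63% of all genes, median -0.98). With TSA, 4 fell and 2 rose in TKO (8.38% and 10% of all genes, median -0.56). The part of such cells in the results was not tested.

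Among the fibroblast markers, Col1a1, Col1a2 and Col3a1 were among those of largest genotype change in DMSO. Col5a1 fell less in TKO (log2 -1.02 in DMSO and -0.11 with TSA). Col6a3, on at most 11 counts in a library, was higher in TKO in DMSO but did not pass (2.54, edgeR adjusted p = 0.0656). Pdgfra was higher there and passed (2.51, adjusted p = 0.000123). Col1a1 was 12.1 and 12.7 CPM in wild type with DMSO and 0.684 and 0.655 in TKO with DMSO, a log2 change of -4.19 ± 0.42 (edgeR adjusted p = 0.000101). It was 13.3 and 18.5 CPM in wild type with TSA and 4.53 and 9.73 in TKO with TSA. The log2 change of Col1a2 in TKO was -3.44 in DMSO and -1.63 with TSA, and Col3a1 held 73 and 40 counts in wild type with DMSO against 1 and 1 in TKO. With TSA, S100a4 was also lower in TKO (log2 -1.94 ± 0.43, adjusted p = 0.0102), a call lost without the first wild type TSA or the first TKO TSA library, while the mesenchymal factor Twist1 was higher (1.28 ± 0.17). Lum, a proteoglycan of fibrous tissue, went from at most 2 counts in each DMSO library to between 54 and 90 with TSA. Parietal endoderm, a matrix-rich lineage, was followed by Gata4, Gata6, Sox17 and Sox7, whose summed level was 4.64 to 9.92 CPM in wild type and 16.7 to 25.4 CPM in TKO libraries. The sum over all 13 endoderm markers listed was 1055 to 1936 CPM in wild type and 964 to 1136 in TKO libraries, so the order of the genotypes depended on which markers were summed.

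Beyond the 10 genes, 30 other contractile and Srf-linked genes were examined, from smooth muscle myosin to the cytoplasmic actins. This list and the caveolar and matrix lists below were chosen with earlier results of these data known. Their counts and p-values are therefore no independent check of the TKO difference in the 10 genes. In TKO with DMSO, 12 fell, 0 rose (9.63% of all genes rose and 10.7% fell) and 18 did not pass the test, with a median log2 change of -0.44 against -0.01 over all genes. With TSA, 9 fell and 0 rose in TKO (10% of all genes rose and 8.38% fell), with a median of -0.24 against 0.00. Without the second TKO DMSO library the 12 became 7, and without the first wild type TSA library the 9 became 3. Acta1, skeletal actin, was 27.4 and 13.4 CPM in wild type with DMSO, 17.8 and 10.1 with TSA, 1.64 and 0.946 in TKO with DMSO, and 1.15 and 0.440 with TSA. It fell in TKO by 3.97 ± 0.47 (log2) in DMSO and by 4.14 ± 0.51 with TSA, with edgeR adjusted p of 0.000269 and 0.000436. Fhl2, a LIM protein that binds Srf, fell by 2.52 ± 0.33 and 2.16 ± 0.28 (adjusted p = 0.000513 and 0.000619), and Cald1 (caldesmon, which binds actin) fell by 2.10 ± 0.17 in DMSO (adjusted p = 1.99e-05).

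With TSA, averaged over genotypes, 11 of the 30 rose, 7 fell and 12 did not pass, with a median of -0.01. Of all genes, 35.9% rose and 33% fell. Scaled by total counts, 13 rose and 4 fell. Smooth muscle myosin, Myh11, was 0.714 and 0.973 CPM in wild type with DMSO and 13.9 and 16.1 with TSA, and 0.616 and 1.02 in TKO with DMSO and 10.6 and 16.3 with TSA. Its average rise was 4.09 ± 0.23 (log2, edgeR adjusted p = 1.95e-07), and its genotypes overlapped, unlike those of Acta2 or Tagln. Mylk, the kinase of myosin light chains, rose by 3.23 ± 0.28 (adjusted p = 2.43e-06) and Synpo2, an actin-binding protein, by 1.95 ± 0.22 (adjusted p = 1.55e-05). Myocd, the Srf coactivator myocardin, was 2.50 and 3.19 CPM in wild type with TSA and 0.541 and 1.32 in TKO with TSA (log2 -1.59 ± 0.40, adjusted p = 0.0190). That call was lost without either wild type TSA library or without the first TKO TSA library. Srf itself and the coactivator genes Mkl1 and Mkl2, named for their role after their values were seen, passed none of the 3 tests, with log2 changes between -0.23 and 0.18.

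Of 9 other caveolar coat genes 8 were tested, since Cav3, the muscle caveolin, had at most 1 count in a library. Averaged over genotypes, 5 rose with TSA, 2 fell and 1 did not pass (median log2 0.44), where 35.9% of all genes rose and 33% fell. Scaled by total counts, 5 rose and 1 fell, and 1 fell also in 5 of the 8 fits that left out 1 library. Cavin 1, listed as Ptrf, was 59.6 and 35.9 CPM in wild type with DMSO, 93.4 and 81.3 with TSA, 19.7 and 21.2 in TKO with DMSO, and 71.4 and 59.0 with TSA. It rose with TSA by 1.27 ± 0.14 (log2, edgeR adjusted p = 1.30e-05) and fell in TKO in DMSO by 1.23 ± 0.21 (adjusted p = 0.00196). Ehd2, an ATPase at the neck of caveolae, rose with TSA by 0.98 ± 0.15 (adjusted p = 0.000184) and fell in TKO in both treatments, by 1.44 ± 0.24 in DMSO (adjusted p = 0.00174) and 0.91 ± 0.20 with TSA (adjusted p = 0.0104). The last call was lost without the first wild type TSA or the first TKO TSA library. Cavin 4, listed as Murc, went the other way, with a fall of 1.23 ± 0.17 with TSA (adjusted p = 8.46e-05) and a rise of 1.03 ± 0.23 in TKO in DMSO (adjusted p = 0.00946), lost without the first library of either DMSO group. In TKO, 2 of the 8 fell and 1 rose in DMSO (10.7% and 9.63% of all genes), and 1 fell and 0 rose with TSA (8.38% and 10% of all genes), with medians of -0.57 and -0.23. The 1 that fell with TSA became 3 without either wild type DMSO library and 0 without the first wild type TSA or the first TKO TSA library.

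Matrix genes and genes of the TGF-beta and Yap pathways, which are known to drive contractile and matrix genes in mesenchyme, were followed through 24 symbols, 23 of them tested. In TKO with DMSO 9 fell and 2 rose (10.7% and 9.63% of all genes), with a median log2 of -0.32. In TKO with TSA 10 fell and 2 rose (8.38% and 10% of all genes), with a median of -0.42. Without the first wild type TSA library the 10 became 5. The 2 that rose became 0 in DMSO without the first library of either DMSO group, and 0 with TSA without either wild type TSA library or the second TKO TSA library. The ligand Tgfb2 was 18.8 and 14.3 CPM in wild type with DMSO, 11.7 and 10.3 with TSA, 0.890 and 1.09 in TKO with DMSO, and 0.880 and 1.32 with TSA. It fell in TKO by 4.05 ± 0.28 (log2) in DMSO and 3.30 ± 0.27 with TSA, with edgeR adjusted p of 8.86e-06 and 3.02e-05. Its receptor Tgfbr2 fell by 2.59 ± 0.34 and 1.99 ± 0.28 (adjusted p = 0.000482 and 0.000937). Thrombospondin 1, Thbs1, fell in TKO by 4.05 ± 0.35 in DMSO (adjusted p = 3.42e-05) and had values of 236 and 193 CPM in wild type and 136 and 159 in TKO with TSA. Ankrd1 fell in TKO with TSA by 2.69 ± 0.42 (adjusted p = 0.00173), on 7 and 9 counts in the TKO libraries.

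With TSA on average, 11 of these 23 genes rose and 7 fell (35.9% and 33% of all genes), with a median of 0.34. Ctgf, a matricellular growth factor listed under its older symbol, was 112 and 69.8 CPM in wild type with DMSO, 183 and 185 with TSA, 32.8 and 18.5 in TKO with DMSO, and 183 and 188 with TSA. It rose by 1.93 ± 0.17 (log2, edgeR adjusted p = 2.40e-06). Thbs1, which fell in TKO in DMSO, rose with TSA by 1.87 ± 0.23 (adjusted p = 2.55e-05). In Ctgf, as in Tnc, the libraries of the genotypes overlapped with TSA and stood apart in DMSO.

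**Figure D4:**
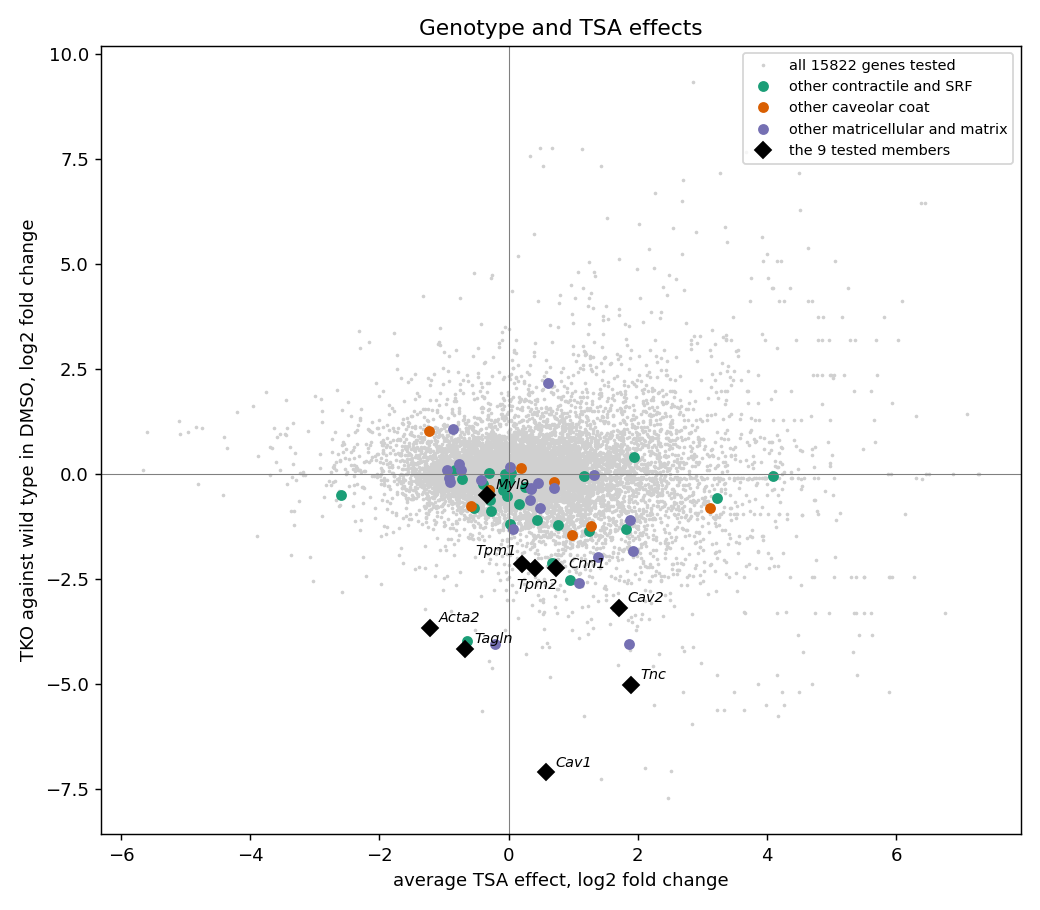
Log2 fold change of TKO over wild type in DMSO (vertical) against the average TSA effect (horizontal) for the 15822 genes tested (grey), the 3 lists of other genes (colours) and the 9 genes tested of the 10 described (diamonds, labelled). All diamonds lie below 0 on the vertical axis, with Myl9 near 0 and Cav1 lowest among them, and they spread on both sides of 0 horizontally, from Acta2 at -1.22 to Tnc at 1.90.

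The genes whose profiles over the 8 libraries came nearest to Tagln, Cav1 and Tnc were sought among 14412 genes whose mean reached 1 CPM, by the root mean square difference of centred log2(CPM + 1) values. Nearest to Tagln were Acta1 (1.11), Krt8 (1.27), Tgfb2 (1.42) and Dnmt3b (1.44), against a median of 2.64 over all genes. Nearest to Cav1 were Dnmt3b (0.244), Tgfb2 (0.331), Wnt3 (0.406) and Dnmt3a (0.448), against a median of 1.60. The 1 added before the log shrinks differences at low levels, and Cav1 was at 0.0728 to 0.879 CPM in TKO libraries. Its ratio of means, wild type to TKO in DMSO, was 149, against 13.2 for Dnmt3b and 7.98 for Dnmt3a. Dnmt3a and Dnmt3b are themselves the disrupted genes. Among the nearest to Tnc were Pde5a (0.323), Slc25a24 (0.370) and Fndc3c1 (0.385), against a median of 1.15. Pde5a, a phosphodiesterase, was 23.3 and 20.5 CPM in wild type with DMSO, 23.3 and 20.9 with TSA, 4.58 and 3.86 in TKO with DMSO, and 18.4 and 20.0 with TSA. Its low group was the same as that of Tnc. These likenesses were picked from all genes by their values and are descriptions.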

How the data were processed

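Total RNA depleted of ribosomal RNA was sequenced as directional paired libraries, per the labels' protocols. The deposited table holds unnormalised counts for each gene, with its exon coordinates and exon length in bases. The submitters' processing notes name mm10, TopHat2 2.0.13, featureCounts 1.4.5-p1 and edgeR 3.22.3 without giving their roles. All 8 count columns matched sample titles. From the counts, edgeR 4.0.16 (R 4.3.3) with TMM factors, filterByExpr and 4 group means gave quasi-likelihood tests of 15822 genes, with Benjamini-Hochberg adjustment and calls at 0.05. Each SE given is the absolute log2 change divided by the square root of the F statistic. It is not a direct estimate and can understate the error at low counts. CPM were computed from the counts, and the test was tried on simulated data. The members and lists were chosen with earlier results of these data known. Named genes are the 10 members, the 3 methyltransferase genes, up to 3 called genes of largest change per list and contrast whose mean reached 1 CPM, and the 4 nearest profiles to Tagln, Cav1 and Tnc, of which some are not reported here. Alternatives were RLE or total count scaling, no filter, DESeq2 1.42.0, a replicate block and leaving out each library. P-values rest on 2 libraries a group. A depth of 13280631 to 15542527 counts limits precision. Promoter windows are from RefSeq (GRCm38.p6).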

Additional observations from a re-analysis of the deposited data

Results flagged for a closer look

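Among the 10 genes, the methyltransferase genes and the genes named from the lists, 8 had a TSA change that differed between TKO and wild type cells in 1 of 2 ways: both TSA libraries lay on opposite sides of both DMSO libraries in the 2 genotypes, or the difference itself passed edgeR's quasi-likelihood test. Over all 15822 genes tested, 0.879% passed that test as higher in TKO and 0.468% as lower. The difference was not tested for Cav1, which was chosen on these values. It had a fitted TSA change in TKO minus that in wild type of 4.02 on the log2 scale, on 2 and 1 counts in the TKO DMSO libraries and 7 and 14 in TKO with TSA. Libraries also lay on opposite sides for Col3a1, where the difference was 4.41 (adjusted p = 0.0438) on 1 and 1 counts in TKO with DMSO, for Dnmt3b at 1.33 (adjusted p = 0.00521), for Dnmt3a at 0.81 (adjusted p = 0.0828) and for Ankrd1 at -1.40 (adjusted p = 0.335), so the last 2 did not pass. Thbs1 (3.51, adjusted p = 0.00639), Col1a1 (3.05, adjusted p = 0.0287) and Ctgf (1.84, adjusted p = 0.0310) passed with TSA libraries that were not on opposite sides. Thbs1, Col1a1 and Col3a1 were named in part for a large fall in TKO in DMSO, which is a part of this difference. That choice favoured a positive difference, so nothing is read from their p-values. The share of all genes with libraries on opposite sides was not counted.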

How the results depend on the processing

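Of 280 counts of genes recomputed under another setting, 237 stayed within 1.5 times the reported count and 43 did not. Scaling by total counts left 4 contractile genes lower with TSA in place of 7, 1 caveolar gene in place of 2, and 1 matrix gene higher in TKO with TSA in place of 2, and Tpm1 passed as higher (adjusted p = 0.0448). DESeq2 gave 1 for the caveolar genes lower with TSA, for the matrix genes higher in TKO in DMSO and for those higher with TSA, and neither Cnn1 (adjusted p = 0.0623) nor Myocd in TKO with TSA (0.0753) passed there. RLE scaling and no filter each gave 1 matrix gene higher in TKO with TSA, and no filter gave 2 caveolar genes lower there. Replicate numbers are shared between groups, and same-numbered libraries deviated together with r from 0.0485 to 0.389 over 6 pairs of groups, all of them positive. No label says that a number marks a shared batch, so the main fit has no pairing. Whether same-numbered libraries share a batch was not tested. With a replicate block, 3 members were lower with TSA in place of 1 (Acta2, Tagln with adjusted p = 0.000329, Myl9 with 0.00828) and 5 higher in place of 4 (Tpm1, 0.0208), and 3 caveolar genes in place of 1 were lower in TKO with TSA. With 1 library left out, which assumes that the lone library of its group varies like the other groups, members higher with TSA ranged from 2 to 5 and lower from 1 to 2. Contractile genes ranged from 9 to 12 higher and 5 to 10 lower with TSA, 7 to 15 lower in TKO in DMSO and 3 to 12 with TSA. Caveolar genes ranged from 1 to 3 lower with TSA, 0 to 1 higher in TKO in DMSO, and 0 to 3 lower in TKO with TSA. Matrix genes ranged from 0 to 2 higher in TKO in either treatment and 5 to 11 lower in TKO with TSA. Members at least 4-fold lower in TKO ranged from 5 to 8 in DMSO and 2 to 5 with TSA. The log2 difference of Myl9 (TKO over wild type in DMSO) ranged from -1.15 to 0.28, positive only without the first wild type DMSO library. Where a count changed, the cause was not tested.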

Other observations

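The endoderm markers did not move as one list. Of 13, 6 rose and 1 fell with TSA on average (median log2 0.22), 6 rose and 3 fell in TKO in DMSO (median 0.40), and 5 rose and 3 fell in TKO with TSA (median 0.57). Of all genes tested, 35.9% rose and 33% fell with TSA. In TKO, 9.63% of all genes rose and 10.7% fell in DMSO, and 10% rose and 8.38% fell with TSA. The stem cell counts below are to be read against the same shares. The simple epithelial keratins, which pair into 1 filament, were among those that fell: Krt8 was 366 and 216 CPM in wild type with DMSO, 498 and 430 with TSA, 24.0 and 36.7 in TKO with DMSO, and 27.7 and 44.6 with TSA. Its log2 change in TKO was -3.26 ± 0.29 in DMSO and -3.68 ± 0.29 with TSA, and that of Krt18 was -3.15 ± 0.25 and -3.11 ± 0.24 (SE, edgeR fit). The endoderm factor Sox17 rose in TKO by 2.77 ± 0.40 in DMSO and 2.06 ± 0.26 with TSA, and with TSA on average by 2.35 ± 0.24. Of the 12 stem cell markers, 11 fell and 0 rose with TSA (median -1.07), and their summed level was 4641 to 5661 CPM in the DMSO libraries and 2475 to 2803 in the TSA libraries. In TKO, 5 of them rose and 0 fell in DMSO (median 0.18), and 4 rose and 1 fell with TSA (median 0.22).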
